A study of Mus musculus with 2 samples.

Results

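The vasoactive peptide and profibrotic receptor genes described here are 10 genes, taken by their symbols from the 24532 genes of the count table and from the TPM values of the same libraries. They are *Ace* and *Agtr1a* of the angiotensin pathway, *Edn1*, *Ece1*, *Ednra* and *Ednrb* of the endothelin pathway, the natriuretic peptide receptors *Npr2* and *Npr3*, the thrombin receptor *F2r* and the lysophosphatidic acid (LPA) receptor *Lpar1*. All 10 were listed with reads and TPM in both libraries. Cardiac myofibroblasts, the contractile and collagen-producing cells of the injured heart, were isolated from the infarcted part of hearts of C57BL/6 mice (C57BL/6J in the study's methods) 3 days after myocardial infarction (MI), which was induced by coronary artery occlusion in male mice 8 to 10 weeks old. They were the CD45-negative cells that attached to plastic, so any other CD45-negative cell that attached could be among them. The cells were transfected with 12.5 nM of a control siRNA (siCtrl) or of an siRNA against *Vgll3*, a transcriptional cofactor gene (si*Vgll3*), and mRNA was sequenced after 72 h. Each condition has 1 library, made with 1 siRNA each, and how many hearts each culture came from is not given in the sources used here.

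With 1 library per condition, differences between conditions could not be checked against replicates, and p-values are not given. TPM is a relative transcript level, scaled for gene length and library size. The study drew an MA plot of these libraries without stating how its axes were computed. Here, M is the log2 of the si*Vgll3* TPM over the siCtrl TPM, and A is log2 of the mean TPM of both libraries. A gene is called lower at M < −0.5 and higher at M > 0.5, in both cases with A > 0. Square brackets after M hold the 95% Clopper-Pearson interval of the read ratio, moved onto the TPM ratio, and those after a TPM hold the 95% exact Poisson interval of its reads. They reflect counting error alone, with each read taken as a separate count. Sequenced reads need not stand for separate molecules, so the true counting error can be wider than the brackets. Below, counting error means what these intervals cover. With 1 library each, the intervals compare libraries and not conditions.

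Reads assigned to genes totalled 140815237 for siCtrl and 125789276 for si*Vgll3*. *Vgll3* itself was at 202 TPM in siCtrl against 84.0 TPM in si*Vgll3*, an M of −1.27 [−1.29, −1.24], so the target of the siRNA was lower in the library labelled si*Vgll3*. The label of the cells was checked against 12 fibroblast and myofibroblast markers, all of which were detected, with a summed level of 22030 TPM in siCtrl against 20399 TPM in si*Vgll3*. The most abundant of them was *Vim*, at 5343 TPM and 6541 TPM. Of the 12, 5 were lower by the thresholds above (*Col1a1*, *Col1a2*, *Postn*, *Lum* and *Tcf21*) and 2 were higher (*Thy1* and *Tagln*). *Ptprc*, which encodes CD45, was listed at 0 reads for either culture. By counting error alone, a true count of up to 3 would be compatible with 0. An exact 0 can also be a failed estimate, so it sets no firm limit, and values of other leukocyte markers are given further on.

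Angiotensin, endothelin, thrombin and LPA all act on fibroblasts through receptors that couple to G proteins, and in the heart they are known for promoting contraction, proliferation and matrix production. Angiotensin II is cut from its precursor by renin and then by the angiotensin-converting enzyme, while endothelin-1 is cut from big endothelin-1 by the endothelin-converting enzyme. Natriuretic peptides act in the opposite way, through receptors that make cyclic GMP (cGMP). Whether such receptors and enzymes differ in abundance after *Vgll3* knockdown is the question that the comparison of the libraries addresses.

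Of the 9 genes at A > 0, 3 were lower in si*Vgll3* and 0 were higher. The lower genes were *Ace*, *Ednra* and *Agtr1a*, or 33.3% of the 9. Over all 11754 genes at A > 0, 11.4% were lower and 5.73% were higher. The other 6 had M between −0.40 and 0.09, and *Npr2* was the only gene of the 10 with M above 0. The median M of the 9 genes was −0.24, beside −0.05 over all genes at A > 0, of which 57.0% had M below 0. The counting intervals of *Ace* and *Ednra* lay wholly below −0.5, while that of *Agtr1a* crossed this threshold. The 10 genes were chosen with earlier results of these libraries known, so these shares describe the list and support nothing about it.

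**Figure D1:**
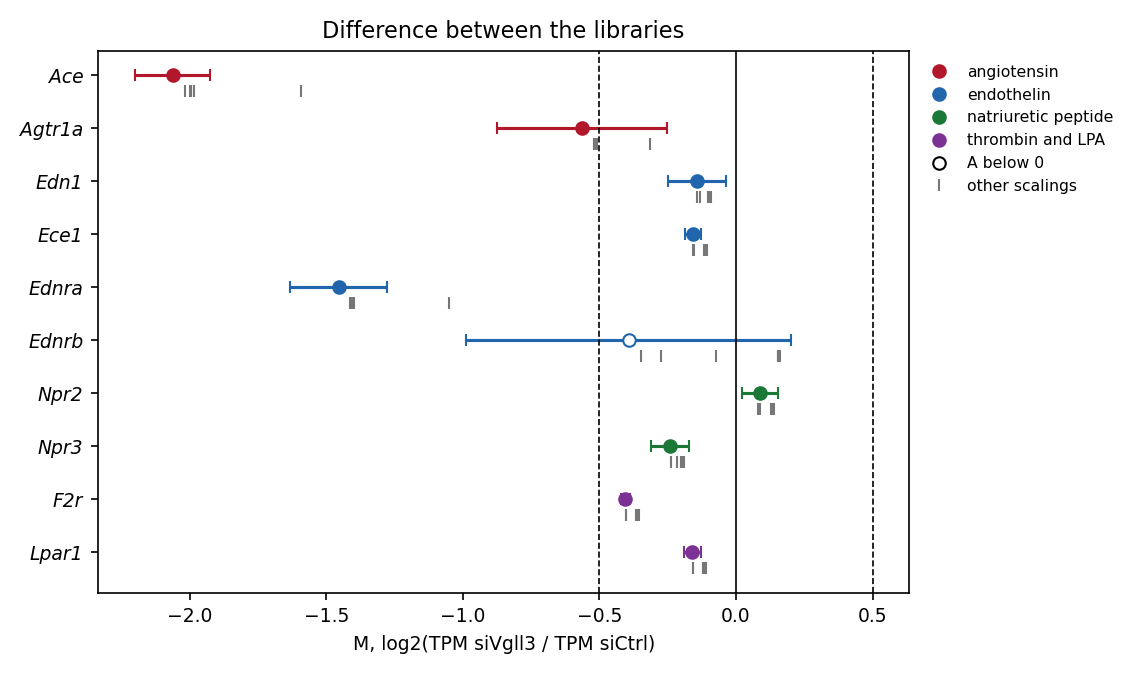
M of each of the 10 genes (x axis, log2 of the TPM ratio of siVgll3 to siCtrl), with points coloured by pathway, bars for the 95% counting interval and dashed lines at −0.5 and 0.5. *Ace* at −2.06 and *Ednra* at −1.45 stand apart from the other genes, and the grey ticks below each point, which give M under 6 other scalings or additions, change sign only for *Ednrb*.

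The promoters of *Ace* and *Ednra*, the genes whose whole interval was below the threshold, are shown beside that of *Edn1*, the gene of the endothelin ligand, whose level differed little. Each is the 250 bases before the annotated start, 5′ to 3′ on the strand of the gene, from RefSeq on GRCm38.p6. The *Ace* window is chr11:105967698-105967947 on the plus strand, the *Ednra* window chr8:77724453-77724702 on the minus strand and the *Edn1* window chr13:42301226-42301475 on the plus strand. Capitals mark matches, on either strand, to the core of the TEAD motif (GGAATG), to the AP-1 motif (TGANTCA), to the GC box (GGGCGG) and to the TATA box (TATAAA). TEAD factors are shown because they are the known partners of vestigial-like proteins.
Ace: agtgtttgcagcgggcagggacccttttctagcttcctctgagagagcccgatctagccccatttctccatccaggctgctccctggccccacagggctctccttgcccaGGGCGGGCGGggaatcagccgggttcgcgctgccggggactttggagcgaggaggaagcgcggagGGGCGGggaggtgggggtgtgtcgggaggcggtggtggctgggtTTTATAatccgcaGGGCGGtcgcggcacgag
Ednra: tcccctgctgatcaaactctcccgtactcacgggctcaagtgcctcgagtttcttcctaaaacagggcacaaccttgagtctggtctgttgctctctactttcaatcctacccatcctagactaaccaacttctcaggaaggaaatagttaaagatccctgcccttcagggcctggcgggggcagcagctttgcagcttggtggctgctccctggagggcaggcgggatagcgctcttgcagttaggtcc
Edn1: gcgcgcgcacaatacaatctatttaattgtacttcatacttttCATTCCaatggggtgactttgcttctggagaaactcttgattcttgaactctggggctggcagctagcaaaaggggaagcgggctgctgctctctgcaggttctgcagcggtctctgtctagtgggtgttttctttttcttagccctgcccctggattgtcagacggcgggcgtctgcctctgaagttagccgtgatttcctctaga

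The *Ace* window, which lies before the start of the longer, somatic form of the enzyme, held 4 GC boxes, of which 2 overlap. It also held a TATA box match on the strand opposite the gene (TTTATA as printed), beginning 31 bases before the start. The *Ednra* window held none of the 4 motifs. The *Edn1* window held a TEAD match, whose farthest base lies 207 bases before the start, and no other match. Of all 32851 windows of this length in the table, 12.6% held the TEAD motif, 6.75% the AP-1 motif, 32.7% the GC box and 12.4% the TATA box. Windows were found for 9 of the 10 genes, all but *Agtr1a*, and numbered 15 because *Ace*, *Ece1* and *Lpar1* have several annotated starts. Among the 15, the TEAD match was in that of *Edn1* alone, and the AP-1 match in that of *F2r* alone. These matches are a description of letters and not of bound sites.

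*Ace* encodes the angiotensin-converting enzyme, a cell-surface dipeptidase that makes angiotensin II and breaks down bradykinin. Its locus (NCBI gene 11421) spans chr11:105967948-105989964 on GRCm38, the assembly also called mm10. It had 2320 reads in siCtrl against 523 in si*Vgll3*. In TPM, *Ace* was at 7.25 [6.96, 7.56] in siCtrl and 1.74 [1.59, 1.89] in si*Vgll3*. The si*Vgll3* library was the lower one and the intervals of the levels did not overlap. M was −2.06 [−2.20, −1.92], so 23.9% of the siCtrl level remained. Only 55 of the 11754 genes at A > 0 (0.468%) had a lower M. The file pools 3 transcripts of *Ace*, among them forms with different starts, and the annotated antisense gene *Gm11651*, which overlaps it, was listed at 0 reads in both libraries.

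*Agtr1a* encodes the type 1a angiotensin II receptor, through which the peptide constricts vessels and stimulates fibroblasts. The locus (NCBI gene 11607) spans chr13:30336356-30382867. It was a gene of low abundance, with 226 reads in siCtrl against 142 in si*Vgll3*. Its level was 1.55 TPM [1.35, 1.77] in siCtrl against 1.05 TPM [0.884, 1.24] in si*Vgll3*. The si*Vgll3* value was again the lower and the intervals did not overlap. M was −0.56 [−0.88, −0.25], and with 1 TPM added to both libraries it was −0.32, short of the threshold. Its close paralogue *Agtr1b* was listed at 0 reads in both libraries, as was *Agtr2*, the other main receptor of angiotensin II. Since *Agtr1a* and *Agtr1b* are alike in sequence, the split of reads between them by the counting is uncertain.

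The other genes of the renin-angiotensin pathway were counted over a list of 18, of which 11 were at A > 0. Of the 11, 3 were lower (27.3%), 0 were higher and the median M was −0.29. For this list and the later ones, the shares over all genes at A > 0 are 11.4% lower and 5.73% higher. The lower genes were those of the peptide itself and of aminopeptidases that trim it. *Agt*, the gene of the precursor angiotensinogen, had 635 reads in siCtrl against 130 in si*Vgll3*, and its level was 5.40 TPM and 1.19 TPM, an M of −2.18 [−2.46, −1.91]. *Anpep*, whose aminopeptidase N shortens angiotensin III, was at 7.90 TPM in siCtrl against 2.53 TPM in si*Vgll3*, an M of −1.64 [−1.79, −1.50]. *Enpep*, whose aminopeptidase A makes angiotensin III from angiotensin II, was at 2.38 TPM and 1.15 TPM, an M of −1.05 [−1.26, −0.85]. The intervals of these M values lay below −0.5.

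The remaining 8 genes of that list had M between the thresholds. *Prep*, a peptidase gene and the most abundant of the list, was at 116 TPM in siCtrl against 137 TPM in si*Vgll3*, an M of 0.24. *Atp6ap2*, which encodes the prorenin receptor, was at 82.0 TPM and 74.0 TPM. The renin genes *Ren1* and *Ren2* and the chymase gene *Cma1* were listed at 0 reads in both libraries.

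*Edn1* encodes the precursor of endothelin-1, a vasoconstrictor peptide. The gene (NCBI gene 13614, chr13:42301476-42307990) had 1534 reads in siCtrl against 1286 in si*Vgll3*. Its level was 11.2 TPM [10.7, 11.8] in siCtrl against 10.2 TPM [9.62, 10.7] in si*Vgll3*, with intervals that overlapped slightly. M was −0.14 [−0.25, −0.03]. The genes of the other endothelins, *Edn2* and *Edn3*, were listed at 0 reads in both libraries.

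*Ece1* encodes the endothelin-converting enzyme, a membrane-bound metalloprotease. The locus (NCBI gene 230857, chr4:137862237-137965229) was among the abundant ones, with 21559 reads in siCtrl against 17897 in si*Vgll3*. Its level was 70.1 TPM [69.2, 71.1] and 62.9 TPM [62.0, 63.8]. The siCtrl value was the higher, by more than counting error, and M was −0.16 [−0.19, −0.13]. The levels of the converting enzymes of the 2 pathways thus differed unequally between the libraries, since the ratio of *Ece1* TPM to *Ace* TPM was 9.67 in siCtrl against 36.2 in si*Vgll3*.

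*Ednra* encodes the endothelin A receptor, the main endothelin receptor of smooth muscle cells and fibroblasts. The gene (NCBI gene 13617, chr8:77663029-77724452) had 1023 reads in siCtrl against 346 in si*Vgll3*. Its level was 4.40 TPM [4.13, 4.67] in siCtrl against 1.60 TPM [1.44, 1.78] in si*Vgll3*. The si*Vgll3* library was the lower and the intervals did not overlap. M was −1.45 [−1.63, −1.28], so 36.5% of the siCtrl level remained, and 154 of the genes at A > 0 (1.31%) had a lower M. For each TPM of the receptor, the ligand gene *Edn1* had 2.55 TPM in siCtrl against 6.34 TPM in si*Vgll3*. In the annotation, the non-coding gene *4933431K23Rik* spans the whole of *Ednra* on the opposite strand. Whether the counting used strand is not given in the sources used here, so the origin of part of the *Ednra* reads is uncertain. Annotated antisense genes also overlap parts of *Edn1*, *Ece1* and *Npr2*, and a non-coding gene on the opposite strand overlaps part of *Npr3*, so the same limit applies to them.

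*Ednrb*, the gene of the endothelin B receptor, known mainly from endothelial cells and from cells of the neural crest, was at the edge of detection. It (NCBI gene 13618, chr14:103814615-103844508) had 50 reads in each library. Its level was 0.263 TPM [0.195, 0.347] in siCtrl against 0.200 TPM [0.149, 0.264] in si*Vgll3*, with overlapping intervals and an A of −2.11. M was −0.39 [−0.99, 0.20], whereas scaling the same reads by the library totals (CPM) gave 0.16, so the direction flipped with the scaling. The gap between M and the log2 ratio of the reads was −0.39 for this gene, beside a median of 0.11 over all genes at A > 0 and 0.09 to 0.11 over the other 9 genes. The file pools 3 transcripts of *Ednrb*. No difference was detectable at this depth.

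The other endothelin pathway genes numbered 7, of which 3 were at A > 0 and 0 passed either threshold. The most abundant was *Furin*, whose protease releases big endothelin-1 from its precursor, at 111 TPM in siCtrl against 105 TPM in si*Vgll3*. Of the endothelin genes at A > 0, with *Edn1*, *Ece1* and *Ednra* included, the receptor gene *Ednra* was the only one past a threshold.

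**Figure D2:**
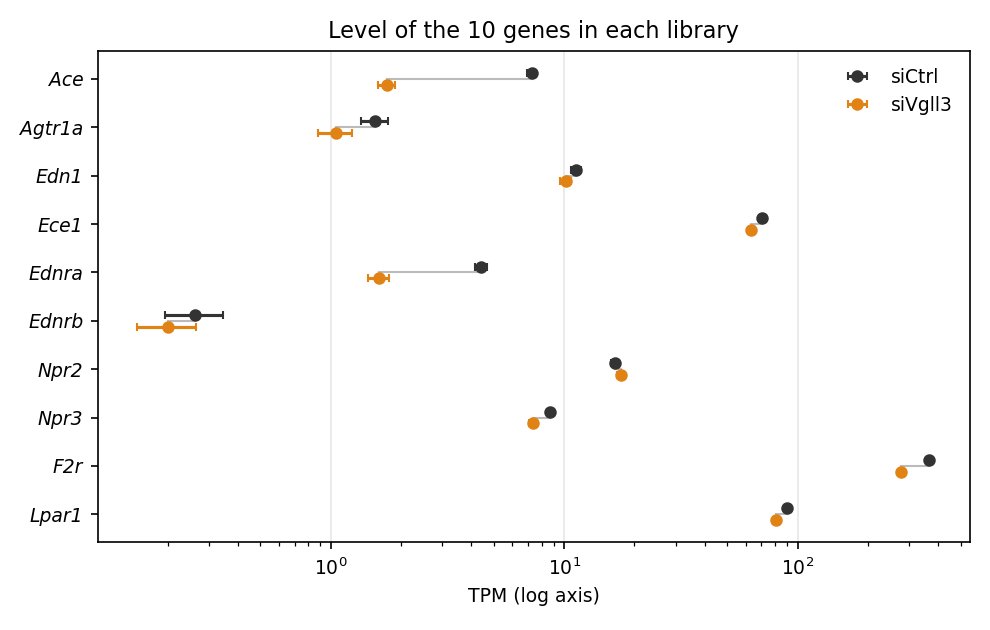
TPM of each of the 10 genes (x axis, log scale) in siCtrl (black) and si*Vgll3* (orange), 1 library each, with bars for the 95% exact Poisson interval of the reads. Levels run from 0.200 TPM for *Ednrb* to 367 TPM for *F2r*, and the widest gaps are those of *Ace* and *Ednra*.

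*Npr2* encodes the guanylyl cyclase receptor of C-type natriuretic peptide. The gene (NCBI gene 230103, chr4:43629015-43651437) had 3835 reads in siCtrl against 3770 in si*Vgll3*. Its level was 16.4 TPM [15.9, 17.0] in siCtrl against 17.5 TPM [16.9, 18.0] in si*Vgll3*, with intervals that touched. M was 0.09 [0.02, 0.15]. *Npr3* encodes the clearance receptor, which binds natriuretic peptides and takes them up but has no cyclase domain. It (NCBI gene 18162, chr15:11839896-11907837) had 3843 reads in siCtrl against 3005 in si*Vgll3*. Its level was 8.69 TPM [8.42, 8.97] and 7.35 TPM [7.09, 7.62], an M of −0.24 [−0.31, −0.17]. The ratio of *Npr2* TPM to *Npr3* TPM was 1.89 in siCtrl against 2.37 in si*Vgll3*.

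Among 16 further natriuretic peptide and cGMP genes, 10 were at A > 0. Of these, 5 were lower (50%), 0 were higher and the median M was −0.41. The lower ones encode proteins that make cGMP, respond to it or break it down inside the cell. *Pde9a*, a phosphodiesterase that breaks down cGMP, was at 5.12 TPM in siCtrl against 1.80 TPM in si*Vgll3*, an M of −1.50 [−1.73, −1.28]. *Pde2a* and *Pde3a*, phosphodiesterases that respond to cGMP, had M of −0.98 and −0.51, and the interval of *Pde3a* crossed the threshold. The annotated gene *Gm45837* overlaps *Pde2a* on the same strand, so the origin of part of its reads is uncertain.

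*Prkg1*, the cGMP-dependent protein kinase, was at 13.6 TPM in siCtrl against 6.63 TPM in si*Vgll3*, an M of −1.04 [−1.11, −0.97], although *Cstf2t* overlaps it on the opposite strand. *Gucy1a3*, a subunit of the nitric oxide receptor guanylyl cyclase, was at 37.8 TPM and 20.5 TPM, an M of −0.88 [−0.93, −0.84]. *Pde1a*, the most abundant gene of the list, was at 77.3 TPM and 76.7 TPM. *Npr1*, the receptor of the atrial and B-type peptides, was near the limit of detection, at 0.270 TPM and 0.399 TPM. *Nppc*, which encodes the C-type peptide, was at 3.50 TPM in siCtrl against 4.36 TPM in si*Vgll3*.

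*F2r* encodes protease-activated receptor 1, which thrombin opens by cutting its extracellular end. The gene (NCBI gene 14062, chr13:95601780-95618466) was the most abundant of the 10, with 77167 reads in siCtrl against 53947 in si*Vgll3*. Its level was 367 TPM [364, 369] in siCtrl against 277 TPM [275, 279] in si*Vgll3*. The siCtrl value was the higher, by more than counting error, and M was −0.40 [−0.42, −0.39], inside the threshold. *F2r* thus made up 63.6% of the summed TPM of the 10 genes in siCtrl and 60.2% in si*Vgll3*. That sum was 576 TPM in siCtrl against 460 TPM in si*Vgll3*, and *F2r* accounted for 77.0% of the gap between the sums. In TPM, the gap of *F2r* was 89.7, whereas that of *Ace* was 5.52.

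Of 13 other genes of the thrombin pathway, 7 were at A > 0, with 0 lower, 3 higher (42.9%) and a median M of 0.42. *Thbd*, whose product thrombomodulin binds thrombin on the cell surface and turns it to the activation of protein C, was at 33.3 TPM in siCtrl against 99.0 TPM in si*Vgll3*, an M of 1.57 [1.54, 1.61]. *Procr*, which encodes the protein C receptor, was at 9.36 TPM and 19.3 TPM, an M of 1.05 [0.93, 1.17]. *F2rl1*, the gene of protease-activated receptor 2, was at 2.34 TPM and 3.32 TPM, an M of 0.51 [0.32, 0.70], whose interval crossed the threshold.

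*Serpine2*, the gene of a thrombin inhibitor and the most abundant of that list, was at 408 TPM in siCtrl against 430 TPM in si*Vgll3*, an M of 0.08. The genes of prothrombin (*F2*) and of the clotting factors *F7* and *F10* were listed at 0 reads in both libraries, while *F3*, the gene of tissue factor, was at 101 TPM and 88.4 TPM. *Thbd* and *Procr* are also known from endothelial cells, and values for endothelial markers are given further on.

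*Lpar1* encodes a receptor of LPA, a lipid mediator with known profibrotic action. The locus (NCBI gene 14745, chr4:58435252-58554027) had 19764 reads in siCtrl against 16377 in si*Vgll3*. Its level was 89.8 TPM [88.6, 91.1] in siCtrl against 80.4 TPM [79.2, 81.7] in si*Vgll3*. The siCtrl value was the higher, by more than counting error, and M was −0.16 [−0.19, −0.13]. *Lpar1* was the most abundant LPA receptor gene in both libraries. *Lpar6* followed, at 9.93 TPM and 13.03 TPM, but it lies within *Rb1* on the opposite strand, so the origin of its reads is uncertain.

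The list of 17 further LPA and sphingosine 1-phosphate genes had 15 at A > 0, with 3 lower (20%), 1 higher (6.67%) and a median M of −0.08. *Lpar3*, another LPA receptor, was at 3.10 TPM in siCtrl against 1.71 TPM in si*Vgll3*, an M of −0.86 [−1.09, −0.64]. The genes of phosphatases that remove LPA went both ways. *Plpp3* was at 106 TPM and 65.7 TPM, an M of −0.70 [−0.73, −0.66], while *Plpp2* was at 71.5 TPM and 122 TPM, an M of 0.77 [0.73, 0.81].

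*Agk*, which encodes a lipid kinase of mitochondria, had an M of −0.74 [−0.86, −0.62]. *Plpp1*, the gene of the list with the highest mean TPM over both libraries, was at 93.2 TPM in siCtrl against 128 TPM in si*Vgll3*, an M of 0.45. *Enpp2*, whose product autotaxin makes LPA outside the cell, was at 0.167 TPM and 0.381 TPM, an A of −1.87.

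In siCtrl, the levels ran in the order *F2r*, *Lpar1*, *Ece1*, *Npr2*, *Edn1*, *Npr3*, *Ace*, *Ednra*, *Agtr1a* and *Ednrb*, and the order was the same in si*Vgll3*. Neighbours in this order had intervals that did not overlap in siCtrl. In si*Vgll3*, the intervals of *Ace* and *Ednra* overlapped, so these neighbours did not differ beyond counting error. The ratio of *Ace* TPM to *Ednra* TPM was 1.65 in siCtrl against 1.08 in si*Vgll3*. The abundance of these genes ran across most of the range of the TPM tables, since *F2r* was above 96.9% of the 14158 genes in siCtrl, *Npr2* above 53.5% and *Agtr1a* above 20.4%.

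**Figure D3:**
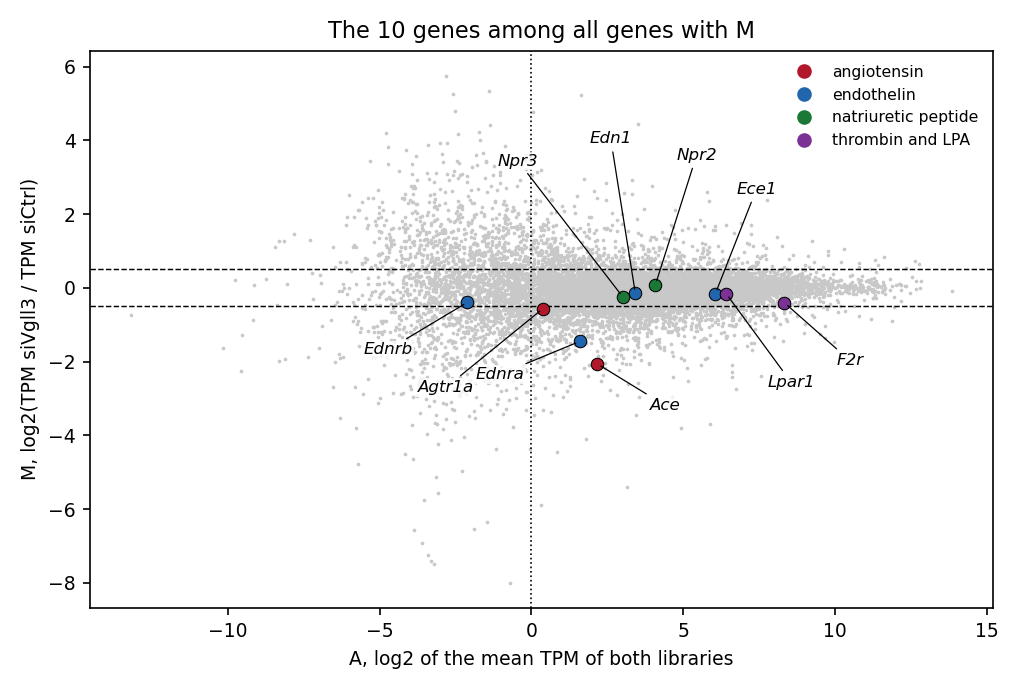
M (y axis, log2 of the TPM ratio of siVgll3 to siCtrl) against A (x axis, log2 of the mean TPM) for all genes with M (grey) and for the 10 genes (coloured by pathway), with dashed lines at −0.5 and 0.5 and a dotted line at an A of 0. The 3 lower genes lie at A of 0.38 (*Agtr1a*), 1.58 (*Ednra*) and 2.17 (*Ace*), to the left of the other 6 genes at A > 0.

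The 3 lower genes were the least abundant of the 9 at A > 0. Between *Agtr1a*, with an A of 0.38, and *Ace*, with an A of 2.17, lay *Ednra* at 1.58, while the next gene, *Npr3*, had an A of 3.00. With A > 2 in place of A > 0, only *Ace* was counted as lower, because *Ednra* and *Agtr1a* left the count. Of the 9938 genes at A > 2, 9.34% were lower, beside 11.4% of the 11754 genes at A > 0. The higher share was 3.95% at A > 2, beside 5.73% at A > 0. Less abundant genes were thus called more often in both directions. In bulk libraries, fewer cells that express a gene and less RNA per cell cannot be told apart.

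Receptors of other vasoactive peptides and amines, with their ligands, made up a list of 23 genes, of which 8 were at A > 0. Of these, 3 were lower (37.5%) and 2 were higher (25%), and the median M was −0.36. *Ramp2* and *Ramp3* encode partners of the adrenomedullin receptor and differed in opposite directions. *Ramp1*, a related gene of the same list, had 48 reads in siCtrl against 8 in si*Vgll3* but no TPM, so it was not counted. *Ramp2* was at 4.75 TPM in siCtrl against 2.30 TPM in si*Vgll3*, an M of −1.04 [−1.37, −0.73], although it overlaps *Vps25* on the same strand. *Ramp3* was at 0.825 TPM and 1.93 TPM, an M of 1.22 [0.79, 1.67].

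The receptor gene they act with, *Calcrl*, had an M of −0.53 [−0.63, −0.44], and the ligand gene *Adm*, the most abundant of the list, was at 330 TPM in siCtrl against 271 TPM in si*Vgll3*. *Avpr1a*, a vasopressin receptor, was at 15.7 TPM and 9.42 TPM, an M of −0.74 [−0.83, −0.65]. The annotated antisense gene *Gm48877* spans the whole of *Avpr1a*, and *Gm28863* the whole of *Adm*. Annotated genes overlap several other pathway genes as well, so this limit is not particular to the genes named with it. *Htr2a*, a serotonin receptor, was at 1.12 TPM and 2.43 TPM, an M of 1.12 [0.88, 1.37].

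The shared signalling genes downstream of these receptors, among them those of G proteins, phospholipases and arrestins, were mostly within the thresholds. All but 2 of the 35 listed genes were at A > 0, and of those 33 genes 2 were lower (6.06%) and 2 were higher (6.06%), with a median M of −0.04. *Rhoa*, the most abundant, was at 813 TPM in siCtrl against 869 TPM in si*Vgll3*. *Rgs3*, a regulator that switches off G proteins, was at 34.0 TPM and 15.1 TPM, an M of −1.18 [−1.24, −1.11]. *Itpr1*, a calcium release channel, had an M of −0.55 [−0.59, −0.51]. The higher genes were *Rgs2*, with an M of 0.62 [0.38, 0.87], and *Itpr2*, with an M of 0.50 [0.43, 0.58], and both intervals crossed the threshold.

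**Figure D4:**
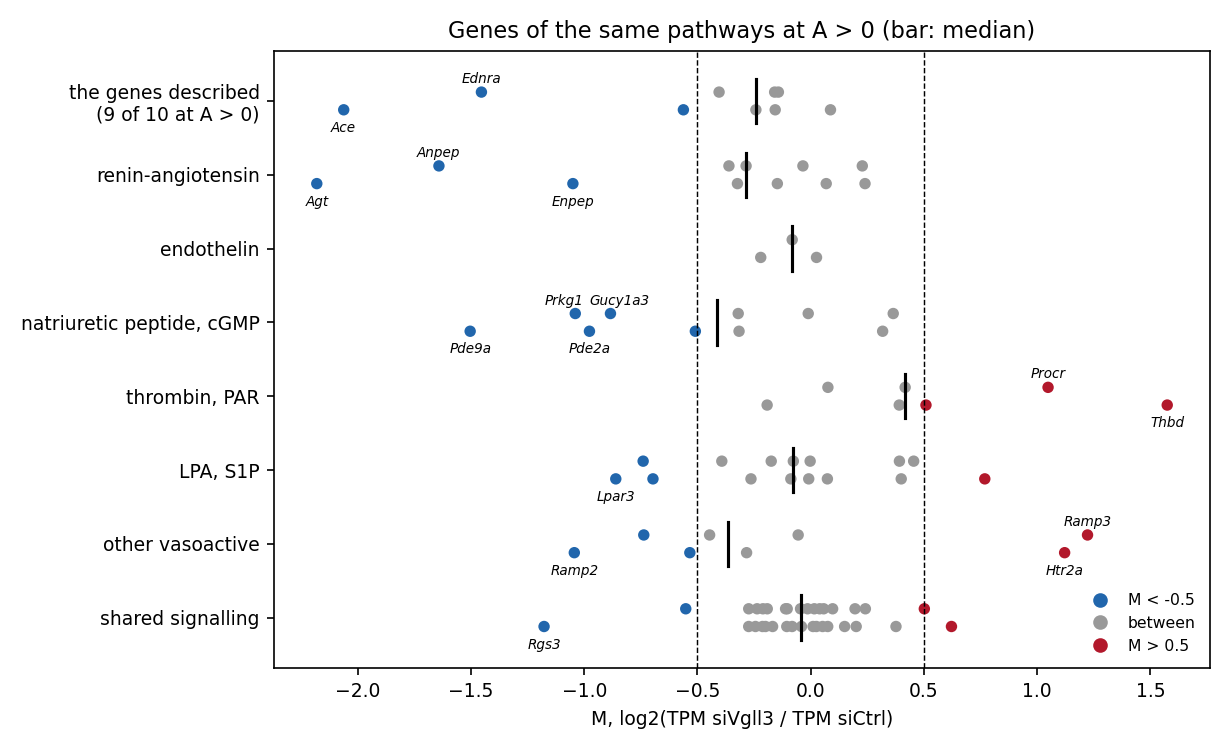
M (x axis, log2 of the TPM ratio of siVgll3 to siCtrl) of every gene at A > 0 in the lists (rows), coloured by its side of the dashed thresholds at −0.5 and 0.5, with a bar at the median of each list. The natriuretic peptide and cGMP list has 5 genes below −0.5 and 0 above 0.5, and the thrombin list has 0 below and 3 above. Among all genes at A > 0, 11.4% were below −0.5 and 5.73% above 0.5. The lists were chosen with earlier results of these data known.

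Over all 7 pathway lists, with 129 genes, 87 were at A > 0, of which 16 were lower (18.4%) and 8 were higher (9.20%). Among all genes at A > 0, 11.4% were lower and 5.73% were higher. The lists were chosen with earlier results known, so these shares describe the lists and support nothing about the pathways. Some of the pathway genes are also known from other cell types, so markers of those cells are given with them. The 12 endothelial markers were all detected, with a summed level of 35.2 TPM in siCtrl against 33.7 TPM in si*Vgll3*, of which *Tek* gave 19.5 TPM and 13.4 TPM. Of the 6 markers at A > 0, 2 had M below 0 and 4 had M above 0, with 1 lower (*Tek*) and 0 higher. Without *Tek*, the other 11 summed to 15.7 TPM in siCtrl against 20.3 TPM in si*Vgll3*. Their part in the values of *Edn1*, *Ece1*, *Ace*, *Thbd* and *Procr* was not tested.

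Of 10 pericyte and smooth muscle markers, 8 had TPM, with a sum of 162 TPM in siCtrl against 211 TPM in si*Vgll3*, of which *Mcam* gave 94.9 TPM and 102 TPM and *Cnn1* gave 44.0 TPM and 96.6 TPM. Of the 4 at A > 0, *Cnn1* was higher and *Notch3* and *Des* were lower, with M of 1.13, −0.82 and −1.21. *Higd1b* was at 0 reads in both libraries. The 6 mesothelial markers summed to 59.4 TPM and 44.1 TPM and went both ways, with 3 lower and 2 higher. *Upk3b* was at 31.6 TPM and 9.89 TPM, *Lrrn4* and *Wt1* were also lower, and *Krt19* was at 2.86 TPM and 16.8 TPM and *Msln* at 1.58 TPM and 5.93 TPM. The 6 Schwann cell markers, of which 4 had TPM, summed to 34.1 TPM and 27.4 TPM, mostly *Ncam1* at 26.6 TPM and 23.0 TPM. The leukocyte markers, 5 of 12 with TPM, summed to 15.7 TPM and 14.4 TPM, with 1 lower and 3 higher. *Lyz2* was the lower one, at 10.9 TPM and 3.13 TPM, while *Cd53* was at 0.760 TPM and 5.91 TPM and *Cd14* and *Csf1r* had M of 0.62 and 0.50. Of the 11 cardiomyocyte markers, 9 were at 0 reads in both libraries and *Tnnt2* alone had TPM, at 60.05 TPM and 10.4 TPM. The part of these cells in the values of *Ace*, *Ednra* and the cGMP genes was not tested.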

How the data were processed

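Poly-A RNA of 2 cultures, 1 library each, was sequenced. According to the study's methods, libraries were made with the TruSeq Stranded mRNA LT kit, and reads were checked with FastQC, trimmed with Trimmomatic, mapped to mm10 with HISAT2 and assigned to known genes with StringTie, with versions not given in the sources used here. The deposited count table holds whole, unnormalized read counts per gene. For 14158 genes, TPM scaled for gene length and library size was likewise deposited.

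M, A and the intervals were computed with Python 3.11.15 and scipy 1.17.1, with nothing added before the logarithm. edgeR 4.0.16 (TMM) and DESeq2 1.42.0 (size factors) served for scaling only, since 1 library per condition allows no test. The interval was run on reads simulated as independent Poisson counts, the model it assumes. That run checks the calculation and not whether the model holds for these reads. Positions came from RefSeq for GRCm38.p6 by NCBI gene ID (all 10 genes matched), and overlaps from GENCODE vM21.

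The 10 genes, the 7 pathway lists and the 7 marker lists were chosen with earlier results of these data known. Named were all 10 genes, *Vgll3*, each pathway gene past a threshold, and the most abundant gene of each list. Other genes were named after their values were seen. Alternatives were CPM, TMM, size factors, centred M, 0.1 or 1 TPM added, and other filters and thresholds. At this depth the 9 genes at A > 0 had at least 142 reads in each library. Some items are not reported here.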

Additional observations from a re-analysis of the deposited data

Results flagged for a closer look

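Some pathway genes had reads in the count table but no TPM, and more reads in si*Vgll3* than in siCtrl by more than counting error. *Nppb*, the gene of B-type natriuretic peptide, had 66 reads in si*Vgll3* and 0 in siCtrl. *Aplnr*, the apelin receptor, had 28 reads in si*Vgll3* and 0 in siCtrl. *F2rl3*, the gene of protease-activated receptor 4, had 9 reads in si*Vgll3* and 2 in siCtrl. *Htr2b*, a serotonin receptor, had 26 reads and 14 reads, but it lies within *Psmd1*, a gene with 37678 reads in si*Vgll3*, on the opposite strand. An exact 0 in this table can be a failed estimate, since 105 genes had 0 reads in siCtrl and at least 20 in si*Vgll3*, and 72 genes the reverse.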

How the results depend on the processing

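No paired analysis was possible because siCtrl and si*Vgll3* are single libraries. M of the 10 genes was recomputed under 6 settings, and 14 of the 60 values left their counting interval. No called gene changed sign. *Ace* ranged from −2.02 to −1.59, *Ednra* from −1.41 to −1.05 and *Agtr1a* from −0.52 to −0.32. Only the uncalled *Ednrb* changed sign, when reads were scaled by totals (CPM), by TMM or by DESeq2's size factors. Lower genes among the 10 numbered 1 with A > 2, 2 with 1 TPM added, a threshold of 1 or the whole interval beyond the threshold, and 3 otherwise, while higher genes numbered 0 throughout. Among all genes counted the same way, the lower share was 9.34% with A > 2, 9.09% with 1 TPM added and 3.27% with a threshold of 1. Of the pathway genes, 7 were lower with a threshold of 1. Higher pathway genes numbered 5 with 1 TPM added or with the whole interval beyond 0.5, 4 with A > 2 or a threshold of 1, and 12 without a filter on A or with at least 10 reads in each library. Among all genes, the higher share was 4.37% with 1 TPM added, 3.95% with A > 2 and 1.76% with a threshold of 1. Shares over all genes are not given for 3 rules, namely the whole interval, no filter on A, and at least 10 reads. Counts of the 10 genes or of pathway genes under those 3 rules therefore cannot be read against all genes. The filters and thresholds change by construction which genes can be counted. Adding 1 TPM also acts by construction, since it shrinks M, most of all for genes of low TPM. CPM moved the median M of all genes most, by 0.05. Depth limits *Ednrb* and *Agtr1a* most.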
